A study of Rattus norvegicus with 6 samples.

Results

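The genes described here are 8 transporters and regulators of the renal intercalated cell, namely Slc4a1, Slc4a9, Slc26a4, Slc26a7, Foxi1, Rhcg, Rhbg and Insrr. They were chosen by name, with earlier results of these data known. All 8 were found among the 14506 genes that could be read from the arrays. Each had 1 probeset (a set of probes for one transcript) that carries no other gene symbol. Their expression was measured in glomeruli that were isolated by sieving from the renal cortex of adult male Sprague-Dawley rats and were not cultured. PEC-enriched isolates (n = 3 arrays) were capsulated glomeruli retained on the 90 µm sieve, which keep Bowman's capsule and its parietal epithelial cells (PECs). PEC-deprived isolates (n = 3 arrays) held glomeruli that had lost the capsule and were caught by the 75 µm sieve. The medulla and papilla were discarded before sieving. Each preparation came from a single rat, and the methods give 3 animals without saying whether both fractions were taken from each. Neither isolate is pure. By the counts of the study the capsulated isolates also held decapsulated glomeruli, and some decapsulated isolates held a few capsulated ones. Tubule fragments were found in all capsulated and most decapsulated isolates. The highest share was in a decapsulated one, while the other decapsulated isolates held a smaller share than any capsulated one.

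Intercalated cells lie in the connecting tubule and collecting duct and move acid, base and ammonia between blood and urine. Type A cells secrete protons with an apical proton ATPase and return bicarbonate to the blood through the anion exchanger encoded by Slc4a1. Type B cells secrete bicarbonate through pendrin, the chloride-bicarbonate exchanger encoded by Slc26a4. The forkhead transcription factor Foxi1 is required for intercalated cells to form and to express their transporters, and Slc4a9 is a known Foxi1 target. Intercalated cells are not part of the glomerulus, and the comparison asked how their genes stood in isolates richer and poorer in capsulated glomeruli.

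Promoter sequence was printed for Slc4a9 and Slc26a4, both genes of type B cells, because Foxi1 is known to act on this group. The windows are those of RefSeq (GRCr8 build), 250 bases before to 50 after the start of transcription. They were held for 5 of the 8 genes (Slc4a9, Slc26a4, Foxi1, Rhcg and Rhbg). Capitals mark the forkhead heptamers, which are ATAAATA or ATAAACA and GTAAATA or GTAAACA, on either strand.
Slc4a9, chr18:28402543-28402842, + strand: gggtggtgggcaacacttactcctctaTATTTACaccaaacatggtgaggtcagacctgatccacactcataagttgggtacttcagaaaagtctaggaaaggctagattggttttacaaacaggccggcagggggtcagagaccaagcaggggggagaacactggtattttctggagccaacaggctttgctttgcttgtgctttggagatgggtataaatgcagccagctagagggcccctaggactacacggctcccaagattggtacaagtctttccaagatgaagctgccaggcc
Slc26a4, chr6:53873167-53873466, - strand: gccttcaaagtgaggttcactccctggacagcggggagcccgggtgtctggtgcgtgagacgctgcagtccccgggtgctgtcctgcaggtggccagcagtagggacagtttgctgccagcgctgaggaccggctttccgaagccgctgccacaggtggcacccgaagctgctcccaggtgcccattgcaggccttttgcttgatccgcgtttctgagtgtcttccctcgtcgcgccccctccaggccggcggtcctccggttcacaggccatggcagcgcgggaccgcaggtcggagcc
The Slc4a9 window held 1 match, on the reverse strand with its first base at -223 from the start. No match was found in the windows of the other 4 genes, which says only that these letters are not in them. Of all 33469 windows of this length, 15.74% held a match. Of 18 other intercalated cell genes with a window, 3 did. Windows of the members differed in base composition, with 50.3% G and C in Slc4a9 and 67% in Slc26a4.

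The mean of each of the 8 genes was higher in PEC-enriched than in PEC-deprived isolates, as was that of 44.82% of all genes. The difference in log2 expression ran from 0.19 for Insrr to 0.94 for Slc4a9, with a median of 0.77 over the 8 genes and of -0.02 over all genes. In 6 of the 8 every PEC-enriched array lay above every PEC-deprived array, which was the case for 9.68% of all genes. The exceptions were Foxi1 and Insrr. No gene passed an adjusted p under 0.01 in limma, the threshold of the study's methods. The adjusted p of the 8 genes lay between 0.152 and 0.679, and 0% of the 29215 probesets passed. At an unadjusted p under 0.05 in limma, 7 of the 8 were higher (all but Insrr), against 7.96% of all genes. A regularised test of the kind named in the study's methods combines each variance with that of probesets of similar level. At an adjusted p under 0.01 it called 0.39% of probesets higher, and 87 of the 14506 genes. Of the 8 genes it called 1, Slc4a9 (adjusted p = 0.00362 by the regularised test, against 0.152 in limma), and Slc4a9 lost this call when the weight of the combined variance was lowered from 10 to 6 or 3. Slc4a1, Slc4a9, Slc26a7 and Rhcg are among the genes that the study listed from these same arrays, so their direction is not independent evidence. All 8 were chosen with earlier results of these data known, so the counts above are a description only. In such bulk samples, fewer cells of a type and less RNA per cell cannot be told apart.

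**Figure D1:**
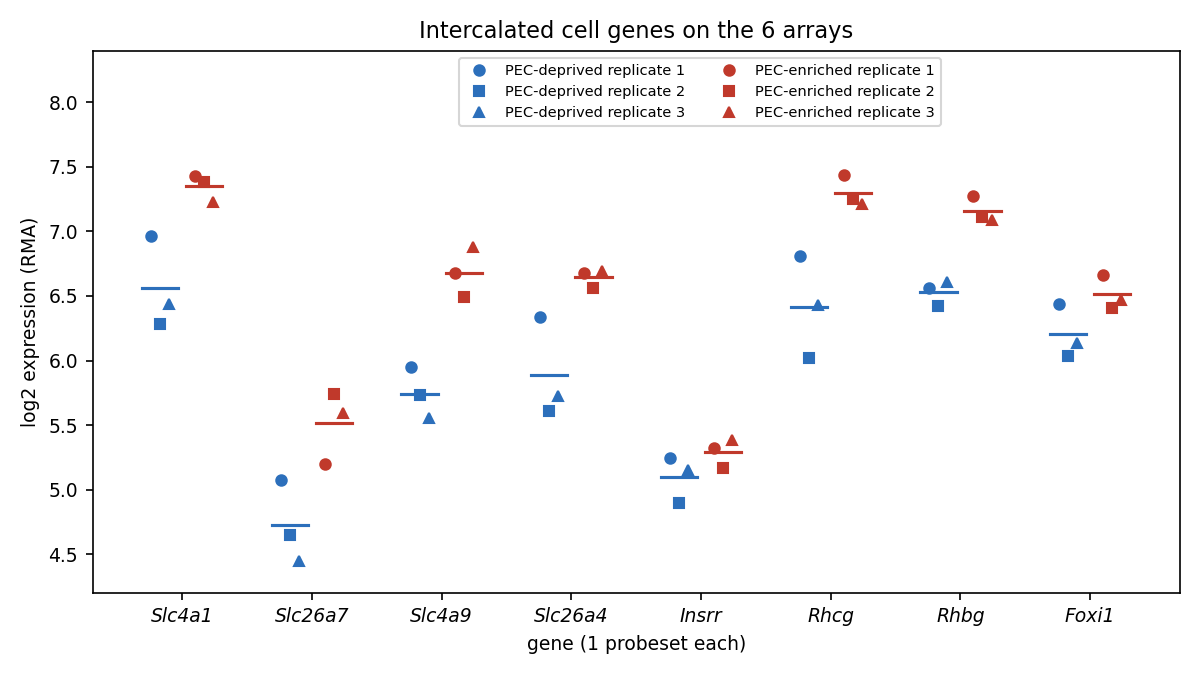
Log2 expression (y axis, RMA values) of the 8 genes (x axis) on each array, with PEC-deprived arrays in blue and PEC-enriched arrays in red, 1 symbol shape for each replicate number and a line at the mean of 3 arrays. In 6 genes all red symbols lie above all blue ones, while those of Insrr and Foxi1 overlap, and heights are not comparable between genes.

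The genes of type A cells were measured first. Slc4a1, the anion exchanger of the basolateral membrane, had log2 values of 7.43, 7.38 and 7.23 on the PEC-enriched arrays and of 6.96, 6.29 and 6.44 on the PEC-deprived arrays (replicates 1, 2 and 3). The PEC-enriched arrays lay close together and above the others, of which replicate 1 was the nearest. The means were 7.35 ± 0.104 and 6.56 ± 0.354 (SD, n = 3 arrays each), a log2 difference of 0.79 or 1.72-fold (standard error 0.17, limma adjusted p = 0.187). Slc26a7, a chloride-bicarbonate exchanger known from the basolateral membrane of type A cells of the outer medulla, had values of 5.20, 5.74 and 5.60 in PEC-enriched and of 5.08, 4.65 and 4.45 in PEC-deprived isolates. Its groups were separated by the smallest gap of the 6 genes without overlap, 0.13 on the log2 scale, between replicates 1 of both isolates. The log2 difference was 0.79 (95% interval 0.35 to 1.23, limma adjusted p = 0.218).

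Slc4a1 is also the anion exchanger of red cells, and 1 probeset does not tell the kidney transcript from the erythroid one. A list of 10 measured erythroid genes was therefore set beside it. In PEC-enriched isolates the mean of 4 was higher and that of 6 lower, with a median log2 difference of -0.05. The mean level of the list was 7.03 to 7.07 on the PEC-enriched and 6.95 to 7.07 on the PEC-deprived arrays. Hbb, a beta-globin gene, had a log2 difference of 0.13 (standard error 0.155) and Alas2, the erythroid enzyme of haem synthesis, one of -0.18 (standard error 0.164), both with overlapping groups. The groups did not overlap in 2 of the 10, with 1 higher and 1 lower. Of all 14506 genes, 1404 were higher and 1306 lower without overlap. The transferrin receptor Tfrc, which many cell types express and which is also on the list of the study, had a difference of 0.77 (standard error 0.174, limma adjusted p = 0.2). Rhag, the Rh-associated glycoprotein of the red cell membrane, had a difference of -0.16 (standard error 0.0937, limma adjusted p = 0.67).

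The genes of type B cells were of unequal size. Slc4a9, an anion exchanger family member of type B cells, stood at 6.68, 6.49 and 6.88 on the PEC-enriched arrays and at 5.95, 5.73 and 5.55 on the PEC-deprived arrays. The groups were 0.55 apart at their nearest on the log2 scale, the widest gap of the 8 genes. Its means of 6.68 ± 0.191 and 5.74 ± 0.198 (SD, n = 3 arrays each) gave the largest difference of the 8, at 0.94 or 1.92-fold (standard error 0.138, limma adjusted p = 0.152), and 1.12% of all genes had a larger one. Of the 5 genes with a promoter window, Slc4a9 alone had the forkhead match above, and 15.74% of all windows had one. Whether the match bears on this difference was not tested. Slc26a4, or pendrin, had values of 6.68, 6.56 and 6.69 in PEC-enriched and of 6.34, 5.61 and 5.72 in PEC-deprived isolates, where replicate 1 stood well above the others. Its log2 difference was 0.75 (95% interval 0.34 to 1.17, limma adjusted p = 0.216). Without PEC-deprived replicate 1 it was 0.98. Insrr, the insulin receptor-related receptor, is a tyrosine kinase that senses alkali and is known from type B cells. It had values of 5.32, 5.17 and 5.39 in PEC-enriched and of 5.25, 4.90 and 5.15 in PEC-deprived isolates, so that PEC-deprived replicate 1 lay above PEC-enriched replicate 2. The log2 difference of 0.19 had a 95% interval from -0.08 to 0.47, which includes 0 (limma adjusted p = 0.679). It was 0.09 without PEC-deprived replicate 2.

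Rhcg and Rhbg encode ammonia transporters of the connecting tubule and collecting duct that are found in intercalated and in other cells there, Rhcg apically and basolaterally and Rhbg basolaterally. Rhcg had log2 values of 7.43, 7.25 and 7.21 in PEC-enriched and of 6.81, 6.02 and 6.43 in PEC-deprived isolates. All PEC-enriched arrays were above the others, and the PEC-deprived arrays were spread over a wider range. The means were 7.30 ± 0.119 and 6.42 ± 0.394 (SD, n = 3 arrays each), a difference of 0.88 or 1.84-fold (standard error 0.186, limma adjusted p = 0.182). Rhbg had values of 7.28, 7.12 and 7.09 in PEC-enriched and of 6.56, 6.42 and 6.61 in PEC-deprived isolates. Its replicates lay close together in both isolates, and its standard error of 0.0991 was the smallest of the 8 genes. The log2 difference was 0.63 (95% interval 0.40 to 0.86, limma adjusted p = 0.152). It was the only one of the 8 in which PEC-deprived replicate 1 was not the highest of its group.

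Foxi1, the regulator, had log2 values of 6.66, 6.41 and 6.47 in PEC-enriched and of 6.44, 6.04 and 6.14 in PEC-deprived isolates. PEC-deprived replicate 1 lay 0.03 above PEC-enriched replicate 2, and the other 2 PEC-deprived arrays lay below all PEC-enriched arrays. The log2 difference was 0.31 or 1.24-fold (95% interval 0.01 to 0.60, limma adjusted p = 0.454), and ran from 0.22 to 0.42 with single arrays left out. For Foxi1 and Insrr 7.36% and 12.5% of all genes had a larger difference, against 1.12% to 2.51% for the other 6 genes. Foxi1 and Insrr were below the median of the array on every array, as were Slc26a4 and Slc26a7. Signal over background is unknown, because detection calls were not used here.

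**Figure D2:**
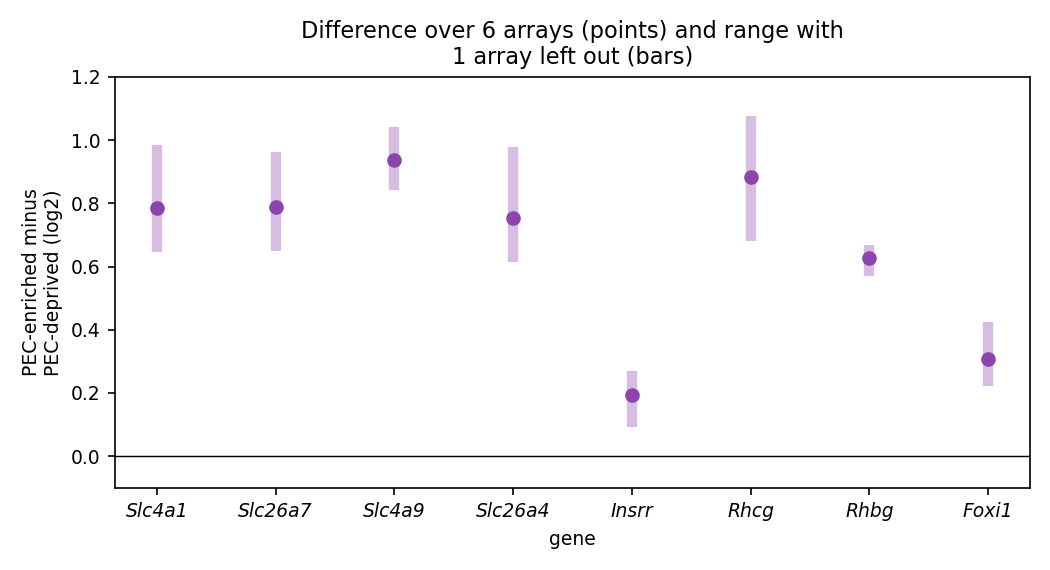
Log2 difference between PEC-enriched and PEC-deprived isolates (y axis) for each gene (x axis), with points for all 6 arrays and bars for the range when each array was left out in turn. All bars lie above 0, and that of Insrr comes nearest to it, at 0.09.

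Pairs of related genes were compared by the log2 value of one minus that of the other on each array, since levels of different probesets cannot be set against each other. Slc4a1 minus Slc4a9, type A against type B, differed between isolates by -0.15 on the log2 scale (standard error 0.211, exact permutation test, two-sided, p = 0.6). Slc26a4 minus Slc26a7, type B against type A, differed by -0.03 (standard error 0.218, exact permutation test, p = 1). For Rhcg minus Rhbg the value was 0.25 (standard error 0.191, exact permutation test, p = 0.4). The adjusted p over the 3 pairs were 0.9, 1 and 0.9 by the exact permutation test, which cannot go below 0.1 with 3 arrays against 3. No pair was thus shown to differ, and none was shown to be alike. The per-array values of Rhcg minus Rhbg were 0.16, 0.14 and 0.13 in PEC-enriched and 0.25, -0.40 and -0.18 in PEC-deprived isolates, where the pair kept no fixed relation.

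Other genes of intercalated cells were taken from a list of 24, of which 22 were measured. The PEC-enriched mean was the higher one for 19 and the lower one for 3, with a median log2 difference of 0.41. No overlap between isolates was seen in 13, all higher, against 9.68% of all genes, and in limma the lowest adjusted p of the 22 was 0.152. By the regularised test at an adjusted p under 0.01, 5 were called higher (Atp6v1b1, Atp6v0d2, Car2, Car12 and Tfcp2l1). This compares with 87 of all 14506 genes and 0.39% of probesets. At prior weights of 6 and 3 the count of the 22 was 0. The 13 included all 5 proton ATPase subunits, with differences from 0.27 to 1.21, led by Atp6v1b1 of the catalytic sector at 1.21 (standard error 0.212) and Atp6v0a4 of the membrane sector at 1.13 (standard error 0.282). The carbonic anhydrases Car2, which supplies protons and bicarbonate inside the cell, and Car12, which is bound to the membrane, had differences of 1.26 (standard error 0.276) and 1.35 (standard error 0.345). The largest was that of Tfcp2l1, which encodes a transcription factor found in collecting duct cells, at 1.43 (standard error 0.208, limma adjusted p = 0.152). Among the others without overlap were Bsnd (0.80), a subunit of basolateral chloride channels, the oxoglutarate receptor Oxgr1 (0.85) of type B cells, the potassium channel Kcnma1 (0.62), Hepacam2 (0.45) and the sodium-dependent anion exchanger Slc4a8 (0.19). Several of these genes, such as Car2, Car12 and Atp6v0a4, are also expressed in other nephron segments. Tfcp2l1 is not confined to the collecting duct either, since the study detected its mRNA by PCR in cultured mouse PECs. Atp6v1b1, Atp6v0a4, Atp6v0d2, Car2, Car12, Bsnd and Tfcp2l1 are, like the 4 genes named above, on the list that the study took from these arrays, and their direction is not independent evidence either.

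The remaining 9 of the 22 had overlapping groups, with log2 differences from -0.19 to 0.38. They were the water channel Aqp6 (0.38) of intracellular vesicles of type A cells, the transcription factors Dmrt2 (0.11) and Hmx2 (0.04), the vasopressin receptor Avpr1a (0.08), P2ry14 (0.05), Slc12a7 (0.07), Slc12a2 (-0.07), Stap1 (-0.11) and Kit (-0.19). For Hmx2 the 95% interval ran from -0.21 to 0.29 and for Dmrt2 from -0.23 to 0.45. The transcription factors Foxi1, Dmrt2 and Hmx2 all had overlapping groups, though the 95% interval of Foxi1, 0.01 to 0.60, did not include 0. The groups of Tfcp2l1, which the study also found in cultured PECs, did not overlap. From which cells these differences came was not tested.

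**Figure D3:**
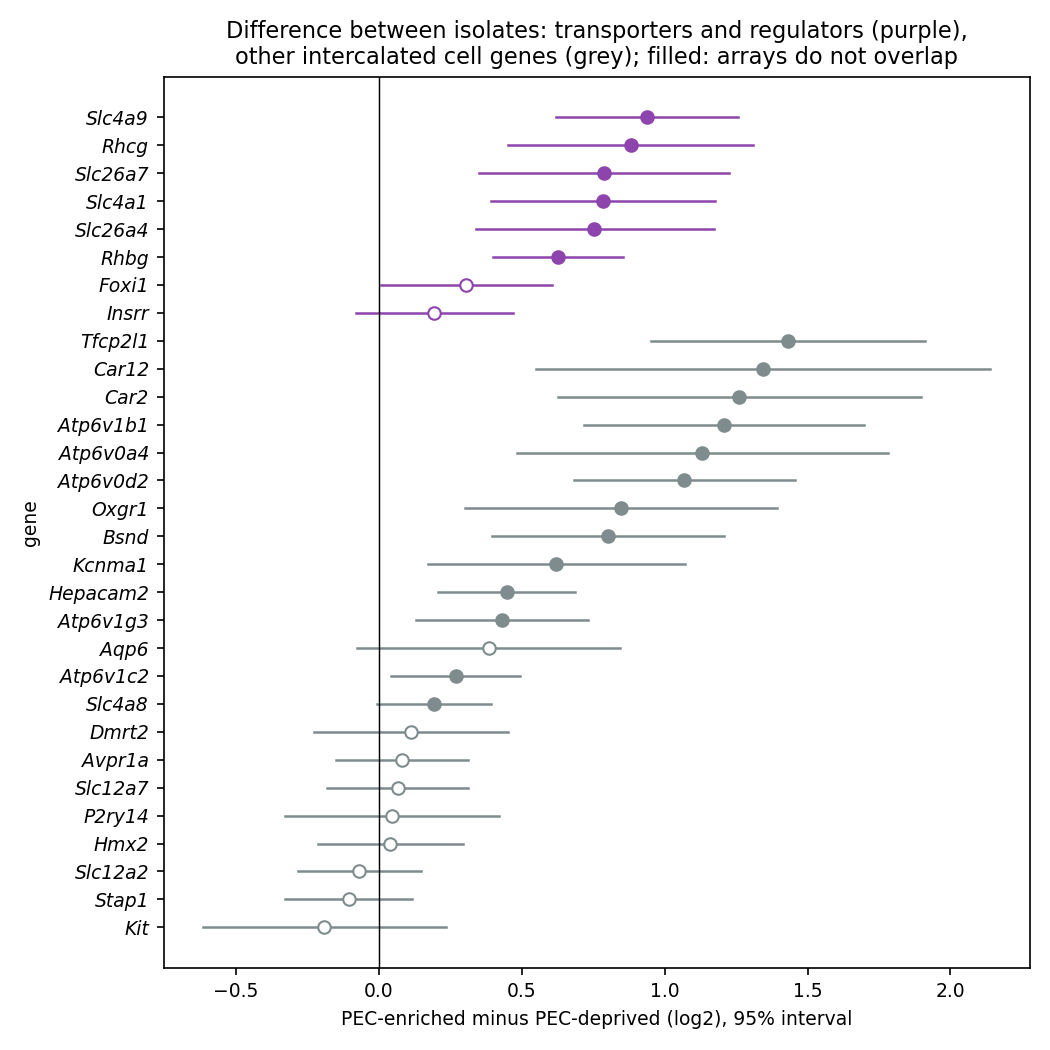
Log2 difference between PEC-enriched and PEC-deprived isolates with its 95% interval from limma (x axis) for the 8 transporters and regulators (purple) and 22 other intercalated cell genes (grey), named on the y axis. Filled points are genes whose isolates did not overlap, 6 of 8 and 13 of 22, and the values run from -0.19 for Kit to 1.43 for Tfcp2l1.

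Markers of neighbouring segments were read on the same arrays. The share of all genes that were higher without overlap, 9.68%, stands beside the counts of this and the next paragraph. Of 10 measured principal cell markers, the mean of 8 was higher in PEC-enriched isolates and 4 did not overlap, with a median log2 difference of 0.18. The largest were those of Hsd11b2 (0.66), which shields the mineralocorticoid receptor from glucocorticoids, and, with overlapping groups, of the basolateral water channel Aqp3 (0.58). The level of the list was 6.34 to 6.45 on the PEC-enriched and 6.05 to 6.30 on the PEC-deprived arrays. Of 9 markers of the distal convoluted and connecting tubule, 7 had a higher mean and 6 did not overlap, with a median of 0.24 and levels of 7.03 to 7.34 against 6.26 to 6.72. Calb1 (2.16) and the thiazide-sensitive cotransporter Slc12a3 (2.00) stood far above the rest of that list.

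Of 10 markers of the thick ascending limb, 10 had a higher mean and 9 did not overlap, with a median of 1.45 and levels of 8.38 to 8.81 against 6.52 to 7.56. For the proximal tubule these counts were 12 and 6 of 12, the median 1.04, and the levels 9.89 to 10.5 against 8.57 to 9.86. For parietal epithelium 11 of 12 had a higher mean and 7 were higher without overlap, with a median of 0.60 and levels of 7.55 to 7.99 against 6.81 to 7.19. No marker was at 0, since RMA values have no zero. The 8 genes had a median of 0.77, and how far tubule RNA or capsule RNA moved with it was not tested. Podocyte markers, which define the glomerulus, were at 11.7 to 12.1 and 11.9 to 12.0, with 3 of 7 higher, a median log2 difference of -0.003 and no gene without overlap. Endothelial markers were lower in 10 of 10 (median -0.49), and leukocyte markers in 9 of 9 (median -0.37), while 3 of 8 mesangial and smooth muscle markers had a higher mean (median -0.13).

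From array to array, the 8 genes had mean values, relative to the mean of each gene over all arrays, of 0.36, 0.29 and 0.34 in PEC-enriched and of -0.05, -0.52 and -0.41 in PEC-deprived isolates. The PEC-enriched arrays were thus close together, and PEC-deprived replicate 1 stood between them and the other 2. That array was the highest of its group in 7 of the 8 genes, and replicate 2 the lowest in 6. The spread between replicates was larger in PEC-deprived than in PEC-enriched isolates for 7 of the 8 genes, against 39.76% of all genes. It was also larger there for most markers of the thick ascending limb and of the proximal tubule, so this is not particular to the 8 genes. Proximal tubule markers gave 0.33, 0.87 and 0.22 in PEC-enriched and 0.18, -1.11 and -0.49 in PEC-deprived isolates, and parietal markers 0.18, 0.62 and 0.29 and -0.18, -0.56 and -0.36. In both of these lists PEC-enriched replicate 2 was well above the other PEC-enriched arrays, whereas in the 8 genes it was the lowest of its group. In markers of the thick ascending limb (1.06, 0.70 and 0.63) and of the distal convoluted and connecting tubule (0.55, 0.31 and 0.24) PEC-enriched replicate 1 was the highest. It was so for the 8 genes too, but only by a margin of 0.02 over replicate 3, which was the lowest in the thick ascending limb and distal lists. On the PEC-enriched arrays the other intercalated cell genes gave 0.34, 0.23 and 0.21, lowest on replicate 3. Principal cell markers gave 0.14, 0.07 and 0.18, highest on replicate 3. Of single genes, Slc4a1, Foxi1, Rhcg and Rhbg were highest on PEC-enriched replicate 1, Slc4a9, Slc26a4 and Insrr on replicate 3, and Slc26a7 alone on replicate 2. These rankings rest on 3 arrays a group and were not tested.

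**Figure D4:**
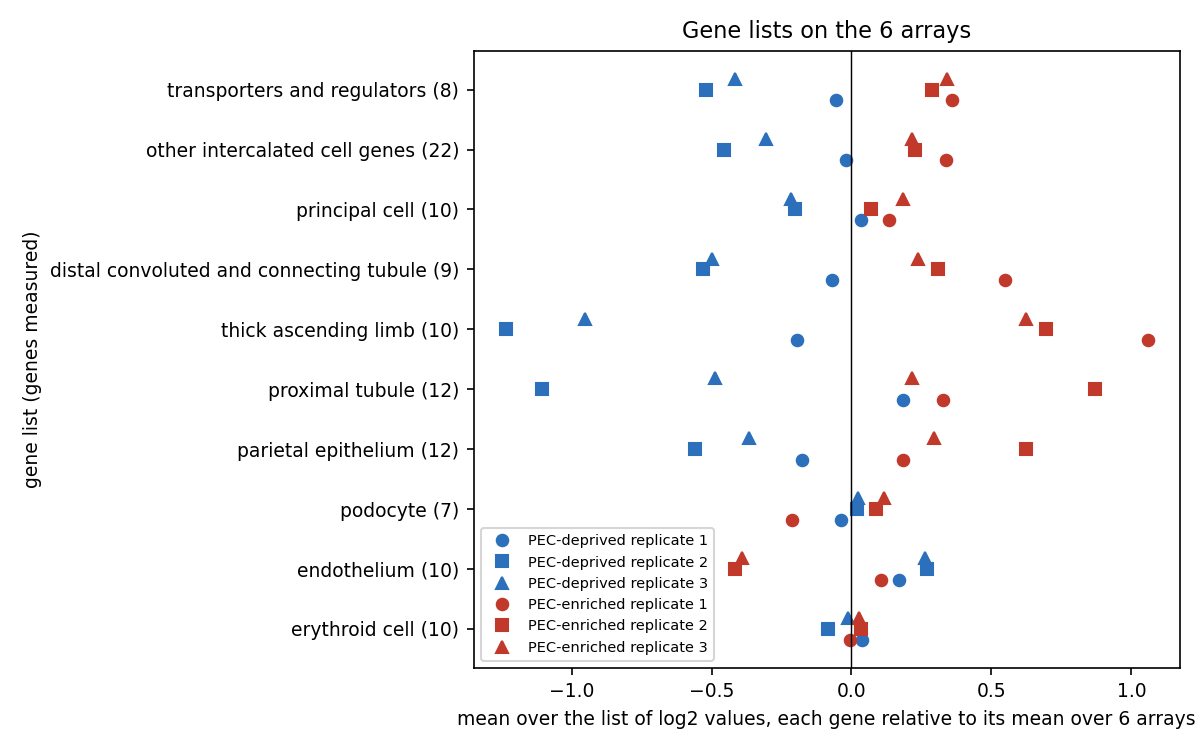
Mean over each gene list (y axis, with the number of genes measured) of log2 values relative to the mean of each gene over all 6 arrays (x axis), 1 symbol per array, with colours and shapes for isolate and replicate number. The 8 transporters and regulators lie at 0.29 to 0.36 on PEC-enriched and at -0.52 to -0.05 on PEC-deprived arrays, and proximal tubule and parietal markers spread further within the PEC-enriched arrays.

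For each of the 8 genes the 3 genes with the most similar course over the 6 arrays were found among all 14506, by the root mean square (RMS) difference of log2 values after subtraction of each gene's own mean. The measure rests on 6 arrays and is a description. Slc4a1 was nearest to Eps8l2 (RMS difference 0.0695), Esrrg (0.0891) and Slc26a4 (0.0904). For Slc26a4 the nearest were Slc4a1, Cox7b (0.0936) and Hpn (0.105). Rhcg was nearest to Esrrg (0.0889), Slc4a1 (0.0974) and Klk1 (0.104). Slc4a1, Slc26a4 and Rhcg, the genes of a type A exchanger, a type B exchanger and an ammonia transporter, were thus linked through Slc4a1, which was among the nearest 3 of both others.

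The other 5 genes had no member among their nearest 3. Slc4a9 was nearest to Casr (0.123), Cpm (0.128) and Klk1 (0.147), and Slc26a7 to Lypd6b (0.1), Uchl1 (0.102) and Krt8 (0.112). Rhbg lay nearest to Arnt2 (0.07), Gsta3 (0.0705) and Cldn19 (0.0705), Foxi1 to Mlnr (0.0501), Zdhhc23 (0.0528) and Fetub (0.0538), and Insrr to Pgrmc2 (0.0293), Rell2 (0.0352) and Marveld3 (0.0365). The small distances of Foxi1 and Insrr go with their small differences between arrays, since genes that vary little lie near each other by this measure. The nearest member ranked 13 for Slc4a9, 129 for Foxi1, 133 for Slc26a7, 321 for Rhbg and 525 for Insrr.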

How the data were processed

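Affymetrix Rat Gene 1.0 ST arrays were hybridized with total RNA, 1 array per preparation, 3 PEC-enriched and 3 PEC-deprived. The authors adjusted the background, quantile normalized log-transformed intensities and summarized probesets with RMA, and the deposited values are log2 expression values (2.13 to 13.87, array medians 6.69 to 6.75). The software version is not given in the sources used here, and scanner files were not used. The number of arrays limits the precision. No column was left out.

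Groups came from the sample titles. Symbols came from the platform annotation of 2016, checked through Entrez IDs against RefSeq (GRCr8, used for names and promoter windows, the array having no stated build). A gene was its probeset with the highest mean among the 15310 with 1 symbol. All 29215 probesets were fitted with limma 3.58.1 in R 4.3.3 (lmFit, eBayes, two-sided, no filter, Benjamini-Hochberg adjustment, threshold 0.01), and the fit was tested on simulated data. Log2 differences are PEC-enriched minus PEC-deprived, and p-values measure the spread between these preparations. The regularised test used a prior weight of 10 and windows of 101 probesets. The members and gene lists were chosen with earlier results of these data known. Named were the 8 members, genes of the list of other intercalated cell genes, up to 2 genes per marker list, and the 3 nearest genes of each member. Hbb, Alas2 and Rhag were named beyond that rule, after their values were seen.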

Additional observations from a re-analysis of the deposited data

How the results depend on the processing

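Each of the 8 genes kept a higher mean in PEC-enriched isolates under every alternative in which it was tested (131 values in all): the replicate block, an intensity trend, the regularised test at 3 prior weights (6 and 3 added after the data were seen), array weights, probesets above the median level, probesets with 1 symbol, median centring, cyclic loess, the mean of a gene's probesets and each array left out. Past an adjusted p under 0.01 was 1 of these values, Slc4a9 (log2 difference 0.94) by the regularised test at prior weight 10. The count of probesets past the threshold was 0 in limma, 119 by the regularised test at prior weight 10 and 1 at prior weight 6, and 0 to 1 with single arrays left out, the 1 without PEC-deprived replicate 1. All of these counts were below the number of probesets that the study reported. Of probesets above the median level 3 of the 8 genes were among those tested. With probesets of 1 symbol alone the lowest adjusted p of the 8 genes was 0.0399 in limma. Without single arrays, the genes without overlap numbered 6 to 8 of the 8, against 12% to 16.4% of all genes (added after the data were seen), the 8 without PEC-enriched replicate 2 or PEC-deprived replicate 1. Slc4a1 minus Slc4a9 ran from -0.28 to 0.00298 without single arrays, Slc26a4 minus Slc26a7 from -0.21 to 0.12 and Rhcg minus Rhbg from 0.11 to 0.43, so the first 2 have no settled direction. Samples of the same number in the 2 isolates were not treated as pairs, since the correlations of their deviations were -0.0287, 0.0519 and 0.1, which does not show whether they came from the same rats. With the replicate block the adjusted p of the 8 genes lay between 0.295 and 0.541 in limma, and 0 passed.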
